A study of Mus musculus with 4 samples.

Results

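Natural killer (NK) cells, here called Eomes positive after a transcription factor of the rule below, made up 280 of the 32150 cells kept from 3 mouse liver libraries. They were chosen by measured values, under a rule on unique molecular identifiers (UMIs, each standing for 1 captured transcript). A cell needed at least 1 UMI in 2 or more of Ncr1, Klrb1c, Klre1 and Prf1, a sum of at least 1 over Eomes, Klra8 and Klra4, a sum of at most 1 over Cd3d, Cd3e and Cd3g, no UMI of Trac or Cd79a, and at most 1 UMI of Clec4f. The rule gave 132 cells of 10615 in S, 105 of 11068 in HFD_sed and 43 of 10467 in HFD_EXE. Eomes itself had a UMI in 103, 83 and 37 of these, and the others were admitted by Klra8, Klra4 or both.

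The series applied droplet single-cell RNA sequencing to liver non-parenchymal cells of C57BL/6J mice at 30 weeks of age, and its titles name diet (HFD, a high fat diet) and exercise. The labels name 4 groups of 1 library each: S, E, HFD_sed and HFD_EXE. S is taken here as the group whose title names no HFD, HFD_sed as HFD without exercise and HFD_EXE as HFD with exercise, since no label spells these letters out. No genotype, drug or duration of diet or exercise is given, and the number of mice behind a library is not given either. The count matrix of E was not analysed here. With 1 library per group there is no replicate spread, so no test between groups was run and no p-value is given. All intervals are exact 95% intervals for counting error only, and cells are not replicates of a condition.

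NK cells are innate lymphocytes that kill target cells with perforin and granzymes and release interferon-gamma and chemokines. In the mouse they mature from a Cd27 stage with Tcf7 and Emb to a stage with Itgam, Klrg1, S1pr5 and Zeb2, under the T-box factors Eomes and T-bet (Tbx21). The liver also holds type 1 innate lymphoid cells (ILC1), which share Ncr1 and Klrb1c with NK cells but lack Eomes and most Ly49 receptors, the Klra family of MHC class I receptors.

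The genes of the rule describe the members and support nothing further, since they chose them. Levels are in CPM, the UMIs of a gene summed over the members of a library and scaled to the same total in each library. Eomes was at 377, 527 and 495 CPM in S, HFD_sed and HFD_EXE, and 103, 83 and 37 members had a UMI of it. Klra8, the activating receptor Ly49H, was at 789, 588 and 773 CPM, and Klra4, the activating receptor Ly49D, at 758, 722 and 795 CPM. Prf1, which encodes perforin, was at 1145, 813 and 985 CPM. Klre1, a lectin-like receptor, was at 551, 811 and 773 CPM, and Klrb1c, which encodes NK1.1, at 642, 702 and 865.5 CPM. Ncr1, which encodes the activating receptor NKp46, had the order 502, 413.5 and 234 CPM. HFD_EXE was lowest for Ncr1 alone among these 7 genes.

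Most members stood well inside the rule. All 4 gate genes were seen in 86, 57 and 20 members, and 43, 32 and 16 members had Eomes, Klra8 and Klra4 together. Eomes was the only one of those 3 genes in 20, 27 and 8 members. At the edge, 11, 14 and 1 members had a single UMI over Eomes, Klra8 and Klra4, and 8, 12 and 1 had a single Cd3 UMI. Just outside, 4, 4 and 0 cells met all else with 1 gate gene, and 1, 0 and 1 cells had a Cd3 sum of 2. Cells that met all else with no UMI of Eomes, Klra8 or Klra4 numbered 53, 51 and 36.

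The markers Ncr1, Eomes, Klra8 and Prf1 together reached 2812, 2342 and 2487 CPM in the members against 52, 65.2 and 21.9 CPM over all kept cells. All 4 are genes of the rule, which fixed this difference, as it fixed Trac and Cd79a at 0 and the Cd3 genes near 0. The T cell list of 12 genes stood at 535, 720 and 637 CPM in the members and at 519, 1439 and 433 CPM over all kept cells. Most of that was Trbc1 (313, 409 and 381 CPM) and Trbc2 (171, 193 and 152 CPM), constant regions of the T cell receptor beta locus. Cd4, Cd5 and Cd6 were at 0 in S and HFD_EXE, and Cd3e, Cd3g and Cd8a were at 0 in HFD_EXE. Of the B cell list, Pax5, which the rule did not use, was at 0 in each library, and the list stood at 191, 343 and 381 CPM against 2192, 6645 and 7755 CPM over all kept cells. The mast cell and basophil list was at 19.2, 6.82 and 0 CPM, with Mcpt8 and Ms4a2 at 0 in each library.

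A few members carried many UMIs of another cell type. They are called mixed-marker members here: 20 or more UMIs over the marker list of sinusoidal endothelium, Kupffer cells, monocytes, neutrophils, dendritic cells, erythroid cells or B cells, a limit set after the data had been seen. There were 12 in S, 5 in HFD_sed and 2 in HFD_EXE, and they held 19.9%, 17.6% and 9.71% of the members' UMIs. Sinusoidal endothelium accounted for 10, 4 and 1 of them. The endothelial list was at 2924, 1165 and 659 CPM in all members and at 420, 339 and 524 CPM without the mixed-marker members. The erythroid list was at 54.6, 77.2 and 15801 CPM in all members and at 57.2, 91 and 121 CPM without them, because 1 member of HFD_EXE held most of those UMIs. Counts of list genes below are therefore given with and without these members, and the genes named below met the rule of size both ways unless their values say otherwise, a choice made after their values were seen.

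Depth also differed between the libraries. Members had a median of 4440, 3470 and 4093 UMIs and 677144, 440186 and 183719 UMIs in all, so the values of HFD_EXE are the least precise. Transcripts of hepatocyte genes were found in the members of each library, and over all kept cells their list stood at 4445, 1269 and 3905 CPM. Between 29 and 46 barcodes were shared by any 2 libraries, and 1 member of S had a barcode also found in HFD_sed. Library and group cannot be told apart.

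NK cells were a smaller share of the kept cells in HFD_EXE than in the other libraries. The labels give 5000 to 6000 captured cells per sample, whereas the libraries hold 11660, 11752 and 11280 barcodes, of which 10615, 11068 and 10467 were kept, so the denominator is larger than the stated capture. They were 1.24% (1.04 to 1.47) of kept cells in S, 0.949% (0.777 to 1.15) in HFD_sed and 0.411% (0.297 to 0.553) in HFD_EXE. The share was 2.31-fold lower in HFD_EXE than in HFD_sed (interval 1.6 to 3.37) and 1.31-fold lower in HFD_sed than in S (1.01 to 1.71). Without the mixed-marker members the latter log2 ratio was -0.32, and its interval of -0.72 to 0.07 spanned no difference. So did its interval when Eomes itself was required (-0.81 to 0.06) and without cells marked as doublets by Scrublet (-0.75 to 0.02). After thinning to 1500 UMIs per cell (-1.01 to -0.16) and under the other settings of the cell rule it did not.

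These differences depended on the denominator. Among cells with a UMI of the leukocyte gene Ptprc, NK cells were 2.18%, 1.27% and 1.06%. On that scale HFD_sed was 1.71-fold lower than S (1.32 to 2.24), and the log2 ratio of HFD_EXE to HFD_sed, -0.26, had an interval of -0.81 to 0.27. T cells were kept cells with a sum of at least 2 over Cd3d, Cd3e and Cd3g, a UMI of Trac and none of Cd79a. There were 1005, 2460 and 693 of them, with medians of 6419, 3559 and 5577 UMIs, and such cut-offs depend on depth. Of NK and T cells together, NK cells were 11.6% (9.8 to 13.6) in S, 4.09% (3.36 to 4.93) in HFD_sed and 5.84% (4.26 to 7.79) in HFD_EXE. Here HFD_sed was lowest, 2.84-fold below S (2.18 to 3.7).

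The limit on Clec4f, a Kupffer cell lectin, removed cells unevenly. It left out 37 otherwise matching cells in S against 2 in HFD_sed and 1 in HFD_EXE. Clec4f had a UMI in 46.2%, 11.4% and 18.6% of the members. B cells were kept cells with at least 2 UMIs of Cd79a and no Cd3 UMI. In these cells, which do not express Clec4f, the shares were 54%, 13.5% and 20.9%, with medians of 3882, 3017.5 and 3684 UMIs. After thinning to 1500 UMIs per cell the shares were 15.3%, 6.8% and 9.3% in NK cells and 25.5%, 5.69% and 6.94% in B cells. The members were capped at 1 UMI of Clec4f before thinning, while the B cells had no such limit. NK and B cell shares are therefore not directly comparable. With no limit on Clec4f the NK shares were 1.59%, 0.967% and 0.42% of kept cells, and HFD_sed was 1.65-fold lower than S (1.29 to 2.12).

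**Figure D1:**
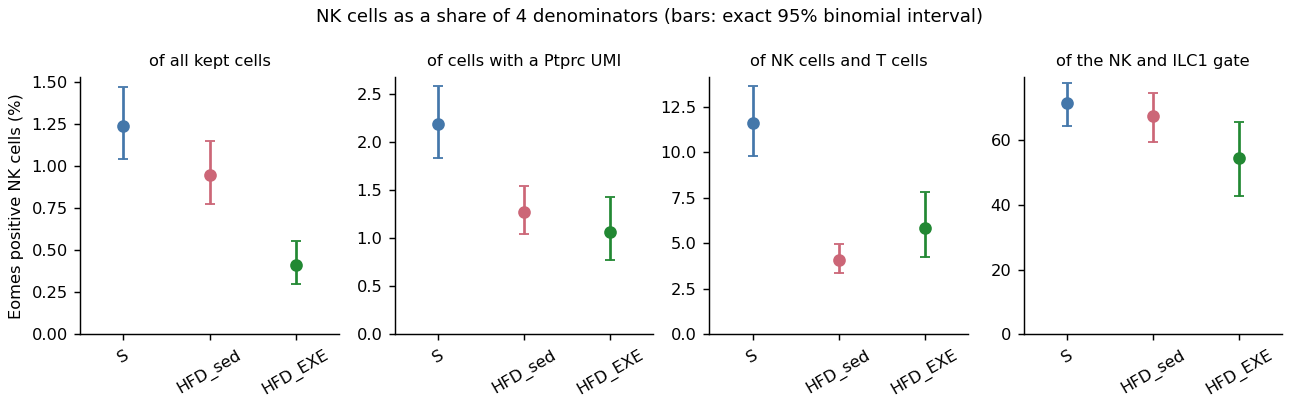
Eomes positive NK cells as a percentage of 4 denominators in S, HFD_sed and HFD_EXE, with exact 95% binomial intervals for counting error, on axes from 0. HFD_EXE is lowest among all kept cells (0.411%), while HFD_sed is lowest among NK and T cells (4.09%).

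Beyond the rule, 2401 genes were ranked by their level in the members against all other kept cells, and the leading 15 were taken. These genes were not seen in every member. In S, for instance, Cma1 had a UMI in 53.8% of members and Klra3 in 31.1%. The gene with the largest lowest ratio to all other kept cells over the 3 libraries was Cma1, a chymase known from mast cells. It was at 249.6, 195 and 316 CPM in NK cells and at 1.25, 0.758 and 1.52 CPM in the other cells. Gzma, which encodes granzyme A, was at 7763, 5895 and 5340 CPM against 79.8, 161 and 24.2 CPM. Itga2, the integrin CD49b used to sort mouse NK cells, was at 270.3, 216 and 272 CPM against 3.69, 6.13 and 2.83 CPM. The same rule also placed the lectin-like receptors Klri2, Klrb1a, Klrb1b, Klrc2 and Klra3, the kinase gene Styk1, the sphingosine receptor S1pr5 and the interleukin-18 receptor chain Il18rap among its leading 15 genes.

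The cells most like them were 111 ILC1-side cells, which passed the same gate with no UMI of Eomes, Klra8 or Klra4 and had a UMI in 2 or more of Il7r, Itga1, Cxcr6, Tmem176b and Cd200r1. There were 45, 39 and 27 of them in S, HFD_sed and HFD_EXE, with medians of 5508, 5552 and 5668 UMIs. NK cells were higher by the rule of size (a ratio of at least 1.5 with an interval clear of no difference, and at least 20 UMIs over both groups) in all 3 libraries for 62 of 3044 genes (2.04%), and lower for 55 (1.81%). Those 2 groups were separated by measured genes, so these values are a description with no test. The counts leave in the genes that separated the groups. Among these are Eomes, Klra8 and Klra4, which by definition had no UMI in ILC1-side cells, so part of the counts was fixed in advance.

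Among the genes on the NK side were Gzma, Sh2d1a and Klra7. Gzma was at 995, 625 and 485 CPM in ILC1-side cells. The median member held 34.5, 20 and 20 UMIs of Gzma, while the median ILC1-side cell held 0 in each library. Sh2d1a, the signalling adaptor SAP, was at 126, 136 and 136 CPM in NK cells against 4.03, 19.1 and 0 CPM. Klra7, the inhibitory receptor Ly49G, was at 256, 266 and 256 CPM against 36.2, 3.81 and 0 CPM. Cytotoxic genes did not all stand on the NK side, as Gzmb was at 721, 449.8 and 659 CPM in NK cells and at 556, 331 and 1386 CPM in ILC1-side cells.

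Among the genes on the ILC1 side were Xcl1, Cd160, Cd226, Cd7 and S100a4. Xcl1, which encodes the chemokine that attracts XCR1 dendritic cells, had a median of 0 UMIs per NK cell in each library and of 6, 3 and 5 UMIs per ILC1-side cell. Cd160, a receptor of the immunoglobulin family, was at 42.8, 70.4 and 32.7 CPM in NK cells and at 358, 320 and 339 CPM in ILC1-side cells. Cd226, the activating receptor DNAM-1, was at 51.7, 79.5 and 43.5 CPM against 391, 305 and 386 CPM. Cd7, a surface glycoprotein of lymphocytes, was at 198, 232 and 305 CPM against 749, 1131 and 1603 CPM. S100a4, a calcium-binding protein gene, was at 63.5, 102 and 43.5 CPM against 463, 1006 and 1082 CPM. For Cd160, Cd226, Cd7 and S100a4 every NK value lay below every ILC1-side value. The chemokine gene Ccl5 was at 12740, 10868 and 10070 CPM in NK cells and at 6926, 6568 and 8089 CPM in ILC1-side cells. It was on neither side by the rule of size, since its ratio in HFD_EXE was below 1.5. Per cell, its median was 57, 36 and 41 UMIs in NK cells and 39, 44 and 39 UMIs in ILC1-side cells, so HFD_sed had the reverse order.

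**Figure D2:**
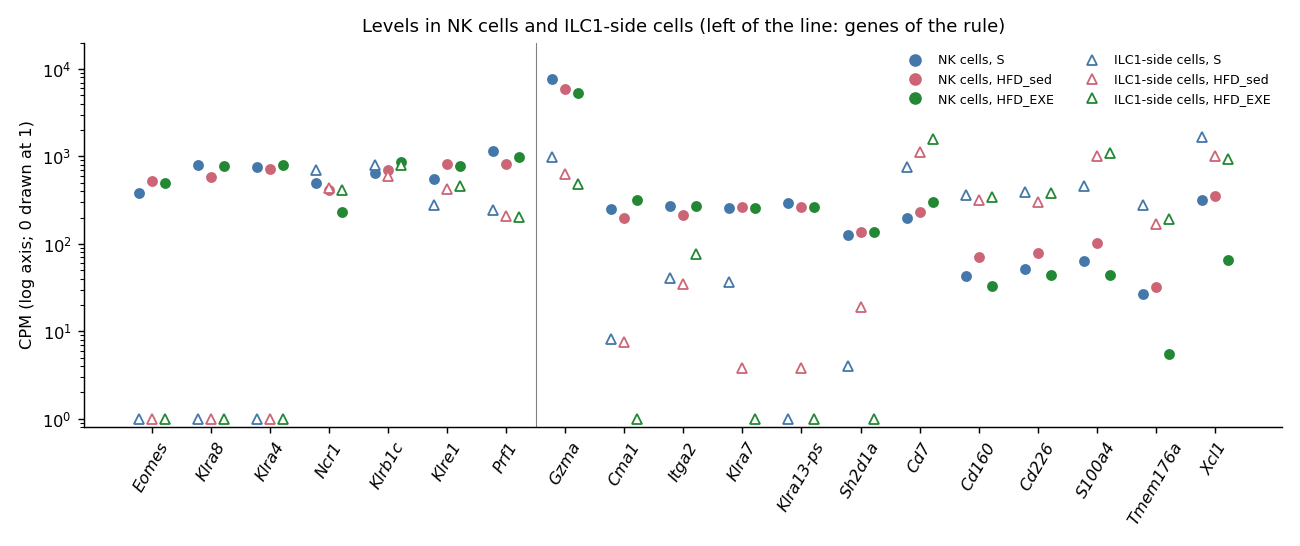
Levels in CPM (log axis, 0 drawn at 1) of the genes of the rule and of 12 other genes in NK cells (filled circles) and ILC1-side cells (open triangles) of S, HFD_sed and HFD_EXE. Gzma, Cma1, Itga2, Klra7, Klra13-ps and Sh2d1a are higher in NK cells of each library, and Cd7, Cd160, Cd226, S100a4, Tmem176a and Xcl1 are higher in ILC1-side cells.

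The Ly49 family needs a caution. The 10x assay reads transcript ends, and over the last 300 bases of their transcripts Klra3 and Klra9 are 98.7% identical, Klra8 and the pseudogene Klra14-ps 94%, and Klra4 and Klra1 86%, by the GENCODE M21 transcripts. How the authors' counting divided reads among such copies is not given, so the levels of single Klra genes are uncertain.

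The members varied among themselves along the maturation axis. After thinning to 1500 UMIs, 48.9% (40 to 57.7) of members in S, 36.9% (27.6 to 47) in HFD_sed and 32.6% (19.1 to 48.5) in HFD_EXE had a UMI of Itgam, Klrg1 or S1pr5 and none of Cd27. Members with Cd27 and none of those 3 were 6.87% (3.19 to 12.6), 10.7% (5.45 to 18.3) and 16.3% (6.81 to 30.7). The order over the libraries was thus opposite for the late and the early markers, with overlapping intervals. It rested on 9, 11 and 7 Cd27-only members, and 42%, 47.6% and 46.5% of thinned members had a UMI of none of these markers. Without thinning the late-only shares were 66.7%, 44.8% and 44.2%, and the Cd27-only shares 6.82%, 17.1% and 11.6%, so the Cd27-only order was not kept.

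Single markers did not all share that order. Klrg1, an inhibitory receptor of mature cells, had a UMI in 20.6%, 9.71% and 11.6% of thinned members. S1pr5, which guides mature NK cells out of tissues, had one in 19.1%, 20.4% and 4.65%. Itgam, the integrin CD11b, had one in 26.7%, 25.2% and 32.6%, and Cd27 in 9.16%, 15.5% and 20.9%. In thinned B cells the shares were at most 1.24% for Itgam, 0.104% for Klrg1, 0.207% for S1pr5 and 2.87% for Cd27. Unthinned NK shares were 53.8%, 41% and 55.8% for Itgam, 34.1%, 16.2% and 18.6% for Klrg1, 47%, 30.5% and 20.9% for S1pr5 and 23.5%, 34.3% and 27.9% for Cd27.

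Members split by these markers differed in other genes in the same direction in each library. The split without mixed-marker members set 80, 46 and 17 late-only members against 9, 17 and 5 Cd27-only members, with median UMIs of 4158.5, 3214 and 3689 against 5659, 3977 and 4905. Gzma was at 10435 CPM in late-only against 3861 CPM in Cd27-only members of S, at 10685 against 1965 in HFD_sed and at 9656 against 1730 in HFD_EXE. Prf1 was at 1549 against 434 CPM, 1352 against 469 and 1788 against 402. Cma1 was at 379 against 61.9 CPM, 460 against 29.3 and 653 against 80.4. Its Cd27-only values rest on only 3, 2 and 2 UMIs. Irf8, a transcription factor of NK and myeloid cells, was at 1248 against 599 CPM, 1585 against 851 and 1944 against 483. Late-only members thus held more Gzma in every library, which did not hold for Gzmb. Prf1 is a gene of the rule, so its values only describe the members.

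The reverse held for genes of the early stage. Emb, which encodes the membrane glycoprotein embigin, was at 124 CPM in late-only against 1156 CPM in Cd27-only members of S, at 364 against 1261 in HFD_sed and at 311 against 1890 in HFD_EXE. Ltb, which encodes lymphotoxin beta, was at 14.5 against 145 CPM, 20.6 against 381 and 0 against 201. These values rest on few UMIs of Ltb, 5 against 7, 3 against 26 and 0 against 5. Tcf7, the transcription factor TCF-1, was at 72.4 against 268 CPM, 103 against 543 and 93.3 against 241, and the interval of its ratio spanned no difference in HFD_EXE. Eomes and Klra8 had intervals that spanned no difference in each library. Gzmb, which encodes granzyme B, was at 1045 against 186 CPM in S and at 1213 against 282 in HFD_EXE, but at 549 against 557 in HFD_sed.

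**Figure D3:**
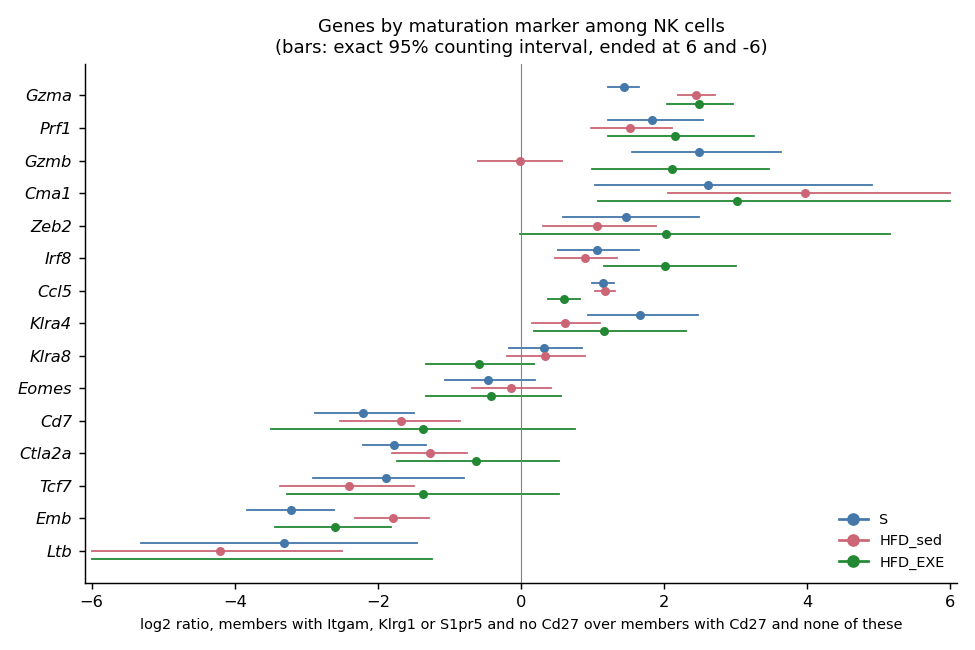
Log2 ratio of the level in members with Itgam, Klrg1 or S1pr5 and no Cd27 to that in members with Cd27 and none of these, for 15 genes in S, HFD_sed and HFD_EXE, with exact 95% counting intervals ended at 6 and -6; Ltb in HFD_EXE has no point because its late-only count is 0. Gzma, Prf1, Cma1, Irf8, Ccl5 and Klra4 lie right of 0 in each library and Emb and Ltb lie left of 0, while Gzmb in HFD_sed lies at 0.

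NK cells without mixed-marker members had 5 of 12 early maturation genes and 9 of 19 immediate early genes higher in HFD_sed than in S. In the same cells 3 of 12 late maturation genes were lower. Of 14 ILC1 marker genes only 7 had enough UMIs to be measured, and 5 of those were higher. The UMI limit can admit a low gene through the library where it is high, so that share describes the measured genes only. Over all genes with at least 20 UMIs in both libraries together, 485 of 6936 (6.99%) met the rule of size as higher in HFD_sed and 337 (4.86%) as lower. Without mixed-marker members these were 375 of 5847 (6.41%) and 204 (3.49%). Of the 485 and 337 genes, 281 and 140 met the rule both ways. The median log2 ratio was 0.04 over all measured genes and 0.06 without mixed-marker members, the values against which the list medians below are read.

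Of the 12 early maturation genes, 5 were higher and none lower without mixed-marker members (6 and 1 in all members), with a median log2 ratio of 0.50. Emb was at 249.6, 766 and 958 CPM in S, HFD_sed and HFD_EXE, 3.07-fold higher in HFD_sed than in S (log2 ratio 1.62, interval 1.35 to 1.89). Tcf7 was at 90.1, 195 and 196 CPM (log2 ratio 1.12, 0.63 to 1.61). S was lowest and the other libraries were alike for Tcf7. Ltb was at 60.6, 149.9 and 54.4 CPM, and Slamf6, a receptor of the SLAM family, at 10.3, 47.7 and 49 CPM. Il7r, the interleukin-7 receptor chain, was at 39.9, 95.4 and 158 CPM, but only 6, 11 and 11 members had a UMI of it and 1 member held 48.2% of its UMIs in S.

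ILC1 marker genes overlapped with that list in Il7r and Ltb. Of the 14 ILC1 marker genes, 9 were measured in all members, with 4 higher (median 0.72). Without mixed-marker members 7 were measured, with 5 higher (median 1.27), and none was lower either way. They were Il7r, Ltb, Rora, Gpr183, a chemotactic receptor gene with 3, 17 and 4 UMIs, and Itga1, the integrin CD49a, which met the rule only without mixed-marker members. Rora is counted again among the transcription factors.

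Of the 12 late maturation genes, 3 were lower and 1 higher without mixed-marker members (3 lower and 2 higher in all members), with medians of -0.33 and -0.32. Cx3cr1, the fractalkine receptor, was at 81.2, 18.2 and 43.5 CPM (log2 ratio of HFD_sed to S -2.16, -3.44 to -1.08). Klrg1 was at 136, 52.3 and 65.3 CPM (-1.38, -2.11 to -0.71). Gzmb was at 721, 449.8 and 659 CPM (-0.68, -0.93 to -0.44). HFD_sed was the lowest library for all 3 of these genes. Rgs2, a regulator of G-protein signalling, went the other way at 439, 720 and 397 CPM. Itgam (186, 143 and 212 CPM), Zeb2 (492, 411 and 261 CPM) and S1pr5 (140.3, 114 and 70.8 CPM) did not meet the rule of size in this comparison.

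Transcription factors followed with 4 of 21 measured genes higher and none lower without mixed-marker members (median 0.32; 5 of 22 in all members). Ikzf2, which encodes Helios, was at 22.2, 97.7 and 43.5 CPM (log2 ratio 2.14, 1.26 to 3.10). Rora, a nuclear receptor factor of innate lymphoid cells, was at 20.7, 88.6 and 81.7 CPM (2.10, 1.19 to 3.10). Klf2, a factor that holds lymphocytes in circulation and in a resting state, was at 1282, 2074 and 1502 CPM (0.69, 0.56 to 0.83). Myb, a factor outside that list that is known from progenitors, was at 20.7, 95.4 and 49 CPM (2.21, 1.30 to 3.19). S was the lowest library for each of these factors. Eomes itself did not meet the rule, with a log2 ratio of 0.48 (0.22 to 0.75), and nor did Tbx21, which was at 185, 129.5 and 65.3 CPM.

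**Figure D4:**
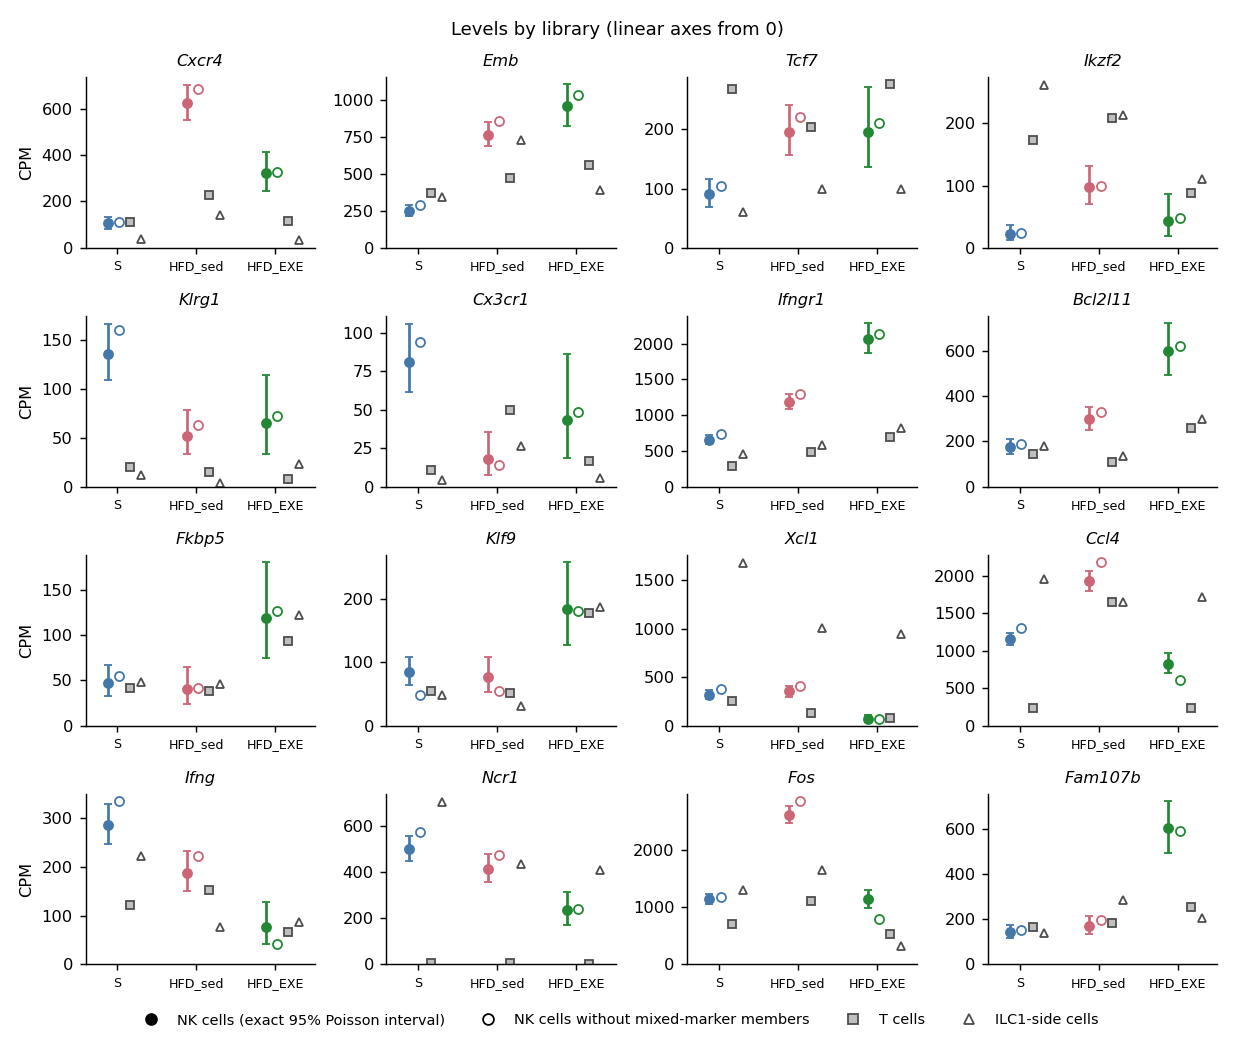
Levels in CPM of 16 genes in NK cells (filled circles with exact 95% Poisson intervals), NK cells without mixed-marker members (open circles), T cells (squares) and ILC1-side cells (triangles) of S, HFD_sed and HFD_EXE, on linear axes from 0. Cxcr4 is highest in the NK cells of HFD_sed (625 CPM), while Ifngr1, Bcl2l11 and Fam107b are highest in those of HFD_EXE.

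Among homing genes, 6 of 22 were higher and 1 lower in HFD_sed than in S, both with and without mixed-marker members (median 0.17 and 0.18). Cxcr4, which retains lymphocytes in bone marrow and tissue, was at 105, 625 and 321 CPM, 5.96-fold higher in HFD_sed than in S (log2 ratio 2.58, 2.19 to 2.97). Rgs1, a brake on chemokine receptors, was at 492, 1131 and 637 CPM, and Ccr2, the receptor for Ccl2, at 267, 484 and 376 CPM. S1pr1, which draws lymphocytes into the blood, was at 85.7, 136 and 109 CPM.

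None of the 16 genes of NK identity met the rule in either direction (medians -0.14 and, without mixed-marker members, -0.11), with Nkg7 at 2022, 1570 and 1894 CPM and Klrk1, which encodes NKG2D, at 821, 1109 and 952.5 CPM. Of 17 granule and death ligand genes, 2 were higher and 1 lower without mixed-marker members (3 higher and 1 lower in all members). Serpinb6b, an inhibitor of granule proteases, was at 264, 513 and 381 CPM, and Fasl, the ligand of the death receptor Fas, at 117, 184 and 196 CPM. Of 11 lectin-like receptors outside the Ly49 family, 3 were higher and 1 lower without mixed-marker members (2 higher and 1 lower in all members). Klrc1, which encodes the inhibitory NKG2A, was at 143, 234 and 152 CPM, Klrb1f, an activating receptor gene, at 145, 227 and 283 CPM, and Klrb1b, an inhibitory receptor gene that met the rule only without mixed-marker members, at 164, 236 and 294 CPM. In the Ly49 list 1 of 8 genes was lower, Klra9 at 436, 166 and 223 CPM (log2 ratio -1.39, -1.78 to -1.02), a gene whose reads cannot be told from those of Klra3 with certainty.

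Cytokine genes were divided. Ccl4, an inflammatory chemokine gene, was at 1153, 1926 and 822 CPM, and Ifng, which encodes interferon-gamma, at 287, 189 and 76.2 CPM. The log2 ratio of HFD_sed to S was 0.74 (0.60 to 0.88) for Ccl4 and -0.60 (-0.99 to -0.23) for Ifng. The ratio of Ccl4 did not meet the rule once the member with most of its UMIs was left out of each library. Of 19 cytokine receptor and signalling genes, 3 were higher and none lower: Ifngr1, which encodes the interferon-gamma receptor, at 656, 1190 and 2068 CPM, Ifnar1, for the type I interferon receptor, at 93, 168 and 190.5 CPM, and Il10ra, for the interleukin-10 receptor, at 85.7, 170.4 and 125 CPM. Interferon response genes had 4 of 13 higher and none lower without mixed-marker members (5 of 19 higher and 1 lower in all members, medians 0.43 and 0.40), among them Zbp1 at 39.9, 81.8 and 76.2 CPM and Bst2 at 96, 154.5 and 70.8 CPM.

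Immediate early genes are induced within minutes of many stimuli, tissue dissociation included. Without mixed-marker members 9 of 19 were higher and 1 lower (8 and 1 in all members), with a median of 0.67. Fos was at 1146, 2624 and 1143 CPM (log2 ratio 1.20, 1.06 to 1.33) and Dusp1, a phosphatase gene, at 640, 1481 and 561 CPM (1.21, 1.03 to 1.39). Egr1 went the other way, at 220, 120.4 and 76.2 CPM. Tnfaip3, a brake on NF-kB signalling, was at 194, 591 and 512 CPM (1.61, 1.30 to 1.92). The same list stood at a median of 0.60 in T cells of these libraries and at -0.06 in ILC1-side cells. Time from dissection to capture is not given in the labels, and its part in these values was not tested.

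Several of the leading differences were also present in T cells. Slc15a2, a peptide transporter gene, had 0, 36 and 2 UMIs in the members, in 0, 25 and 2 of them, at least 18.5-fold higher in HFD_sed than in S (S set to 3 counts). In T cells it was at 0.128, 53.2 and 1.84 CPM, and over the whole libraries at 0.595, 42.4 and 4.42 CPM. Cyp4a10, a fatty acid hydroxylase of hepatocytes, was at 66.5, 4.54 and 0 CPM in NK cells and at 43.6, 2.55 and 9.41 CPM in T cells. Mir6236 was at 2311, 609 and 784 CPM in NK cells and at 1973, 597 and 764 CPM in T cells. Of 15 hepatocyte genes, 12 were lower and none higher in HFD_sed than in S (13 without mixed-marker members). Their list stood at 2273, 707 and 931 CPM in the members, and its part in these values was not tested.

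Other leading genes of the comparison were Crem, a regulator of cyclic AMP responses, at 23.6, 114 and 81.7 CPM, Hilpda, a lipid droplet protein gene, at 10.3, 65.9 and 27.2 CPM, and Klf10 at 94.5, 18.2 and 32.7 CPM. Klf10, a factor induced by TGF-beta, was 5.2-fold lower in HFD_sed than in S. Cd5l, a macrophage gene, was nominally higher at 93, 409 and 32.7 CPM, but 1 member held 90% of its UMIs in HFD_sed and its log2 ratio was -1.03 without mixed-marker members. G0s2 rested likewise on 1 member of S with 73.5% of its UMIs.

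Between HFD_EXE and HFD_sed, 5 of 8 cytokine genes and 10 of 19 immediate early genes were lower in the NK cells of HFD_EXE, and 6 of 12 glucocorticoid response genes were higher. This comparison shares the HFD_sed library with the previous one, so a high or low value in HFD_sed enters both, and the level in S is printed beside each. By the rule of size, 160 of 4904 genes (3.26%) were higher in HFD_EXE and 329 (6.71%) lower. Without mixed-marker members 132 of 4155 (3.18%) were higher and 164 (3.95%) lower, and 90 and 120 genes met the rule both ways. The median over all measured genes was -0.10, and -0.05 without mixed-marker members. With median-of-ratios scaling the counts were 229 higher and 242 lower, so the split by direction depends on the scaling.

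Cytokine and chemokine genes were lower, 5 of 8 measured with none higher and a median of -0.98 (-1.28 without mixed-marker members). Xcl1 was at 318, 352 and 65.3 CPM in S, HFD_sed and HFD_EXE, 5.39-fold lower in HFD_EXE than in HFD_sed (log2 ratio -2.43, -3.41 to -1.58). Its UMIs numbered 215, 155 and 12, so S and HFD_sed stood together and HFD_EXE apart. Ifng was at 287, 189 and 76.2 CPM (-1.31, -2.24 to -0.48), with HFD_EXE again lowest. Ccl4 was at 1153, 1926 and 822 CPM (-1.23, -1.49 to -0.98), and 1 member held 25.8% of its UMIs in HFD_EXE. Ccl3, a related chemokine gene, was at 434, 527 and 316 CPM, and Ltb at 60.6, 149.9 and 54.4 CPM. In T cells the median of the same list was -0.79 and in ILC1-side cells 0.13.

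Of 20 transcription factors 4 were lower and 1 higher, and without mixed-marker members 3 were lower and none higher (medians -0.04 and -0.06). Tbx21, which drives late maturation and interferon-gamma production, was at 185, 129.5 and 65.3 CPM (log2 ratio -0.99, -2.02 to -0.07). Runx3, a partner factor of T-bet, was at 291, 357 and 190.5 CPM (-0.91, -1.48 to -0.37). HFD_EXE was lowest for both of these factors. Klrc1 was at 143, 234 and 152 CPM (-0.62, -1.28 to -0.004), and S1pr5 met the rule only without mixed-marker members (-1.16, -2.31 to -0.17).

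Genes that were higher in HFD_sed than in S took different places in HFD_EXE. The log2 ratio of HFD_EXE to HFD_sed was 0.32 (0.05 to 0.59) for Emb and 0.00 (-0.60 to 0.58) for Tcf7. For Cxcr4, a homing gene, it was -0.96 (-1.39 to -0.55), which left HFD_EXE between S and HFD_sed. The early list had 2 of 12 genes lower, Ltb and Xcl1, and none higher, both with and without mixed-marker members (medians 0.05 and -0.07). Both genes are also counted in the cytokine list, and Ltb again in the ILC1 marker list. The late list had Rgs2 and S1pr5 of 11 lower and none higher without mixed-marker members, and Rgs2 and Zeb2 lower and Cma1 higher in all members (medians 0.16 and 0.23). The ILC1 marker list had 2 of 8 lower in all members and 1 of 6 without mixed-marker members (medians -1.26 and -0.71).

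Immediate early genes had 10 of 19 lower and none higher (13 of 18 without mixed-marker members), with medians of -0.70 and -1.01. Jun was at 567, 772 and 294 CPM (log2 ratio -1.39, -1.84 to -0.98), and Nr4a1, an early gene of antigen and cytokine signalling, at 211, 307 and 98 CPM (-1.65, -2.44 to -0.93). Fos was at 1146, 2624 and 1143 CPM, with 27.1% of its UMIs in 1 member of HFD_EXE. Jun and Nr4a1 were thus lowest in HFD_EXE, while Fos was alike in S and HFD_EXE. Heat shock genes had 3 of 9 lower and none higher (4 of 9 without mixed-marker members), with Hspa8, a constitutive chaperone gene, at 505, 759 and 376 CPM. The median of the immediate early list was -0.77 in T cells and -0.54 in ILC1-side cells. That of the heat shock list was -0.59 in T cells and -0.70 in ILC1-side cells, against -0.65 in all NK members.

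Interferon response and metabolic genes were lower in smaller numbers. Without mixed-marker members 3 of 12 interferon response genes were lower and none higher (5 of 14 lower in all members), with medians of -0.52 and -0.75. Gbp7, a guanylate-binding protein gene, was at 109, 149.9 and 43.5 CPM, Irf1, a transcription factor of interferon signalling, at 176, 216 and 119.7 CPM, and Isg15 had 19, 24 and 1 UMIs. Ldha, which encodes lactate dehydrogenase, was the 1 glycolysis gene of 13 that was lower both ways, at 169.8, 216 and 87.1 CPM. The median of the glycolysis list was -0.564 in all NK members, -0.406 in T cells and -0.435 in ILC1-side cells. Myc, a transcription factor of lymphocyte growth, had 25, 29 and 2 UMIs.

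Of 12 glucocorticoid response genes, 6 were higher and 1 lower in HFD_EXE than in HFD_sed (6 and 1 of 11 without mixed-marker members), with medians of 0.62 and 0.95. The list also differed between HFD_sed and S, with 4 of 12 higher and 2 lower in all members and 4 of 11 higher and 1 lower without mixed-marker members (medians 0.09 and 0.55). Fkbp5, a co-chaperone of the glucocorticoid receptor, was at 47.3, 40.9 and 119.7 CPM (log2 ratio 1.55, 0.58 to 2.53). Klf9, a glucocorticoid-induced factor, was at 84.2, 77.2 and 185 CPM (1.26, 0.53 to 1.99), and Txnip, a thioredoxin inhibitor gene, at 697, 827 and 1393 CPM (0.75, 0.52 to 0.99). HFD_EXE stood above both other libraries for these 3 genes. Ddit4, an inhibitor of mTOR signalling, was at 48.7, 27.3 and 92.5 CPM, and Sgk1, a kinase gene, at 168, 161 and 245 CPM. Dusp1 was the member that was lower. Tsc22d3, which encodes the glucocorticoid-induced leucine zipper, was at 291, 613 and 740 CPM and did not meet the rule here.

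T cells of the same libraries had the same order for 3 of these genes. In T cells Fkbp5 was at 41.3, 38.6 and 93.4 CPM, Klf9 at 54, 51.5 and 179 CPM and Txnip at 622, 777 and 1534 CPM. The median of the list was 0.88 in T cells and 1.43 in ILC1-side cells. Higher values in HFD_EXE were thus found in NK, T and ILC1-side cells, and the difference between these cells was not tested.

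The genes with the largest bound in HFD_EXE were led by Fam107b, at 143, 173 and 604 CPM, 3.5-fold higher than in HFD_sed (log2 ratio 1.81, 1.37 to 2.25). In T cells Fam107b was at 165, 186 and 256 CPM and in ILC1-side cells at 141, 286 and 205 CPM. Hvcn1, a proton channel gene, was at 36.9, 34.1 and 163 CPM, and Rfc1, a DNA replication factor gene, at 39.9, 18.2 and 87.1 CPM. Ifngr1 was higher in both comparisons, with log2 ratios of 0.86 (0.68 to 1.05) and 0.80 (0.60 to 0.99). Bcl2l11, which encodes the death promoter BIM, was also higher in both, at 176, 298 and 599 CPM (0.76 and 1.01). Bcl2, which encodes the survival factor that BIM binds and was named outside the rules of choice, was at 287, 413.5 and 686 CPM. In T cells Bcl2l11 was at 145, 107 and 257 CPM and Ifngr1 at 294, 483 and 688 CPM.

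**Figure D5:**
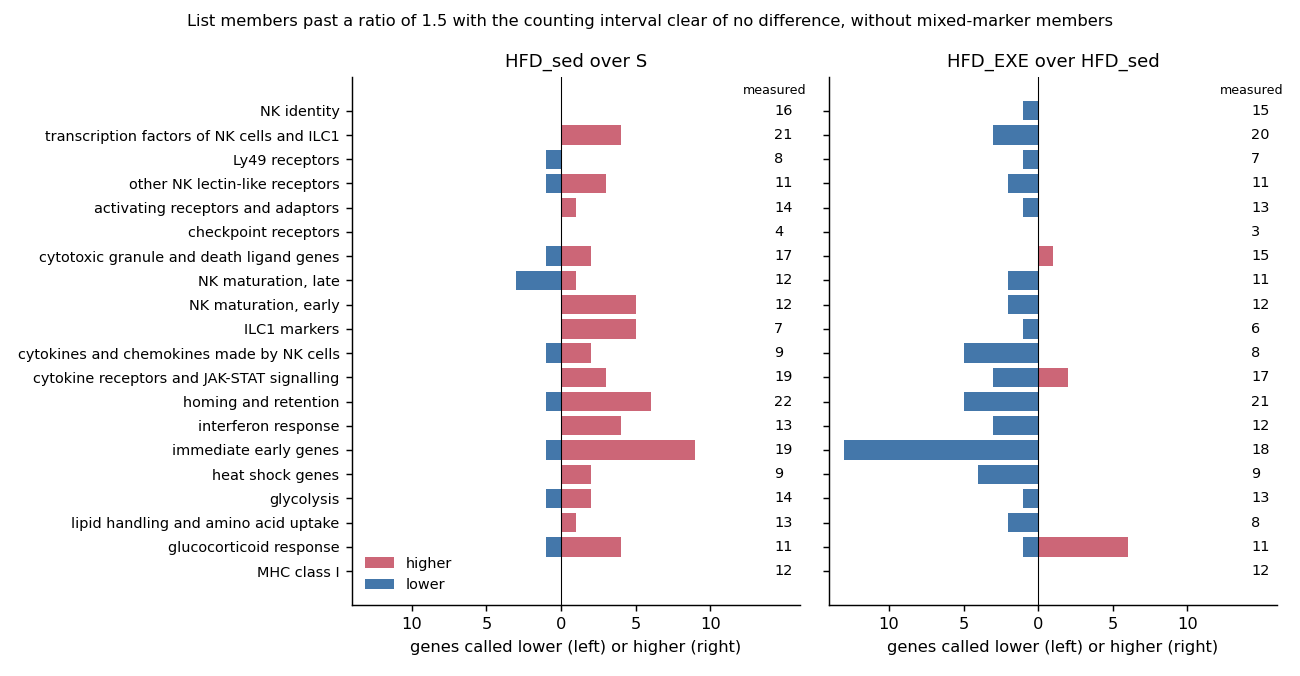
Number of genes of each list that met the rule of size as higher (red, to the right) or lower (blue, to the left) in NK cells without mixed-marker members, for HFD_sed over S and HFD_EXE over HFD_sed, with the number of genes measured at the right. Of the immediate early genes, 9 of 19 are higher in HFD_sed and 13 of 18 are lower in HFD_EXE, and 6 of 11 glucocorticoid response genes are higher in HFD_EXE.

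None of the 12 MHC class I genes met it in either comparison (medians 0.12 and -0.14), with B2m, the shared light chain, at 2633, 2999 and 2732 CPM. None of the 4 checkpoint receptor genes with enough UMIs met it in either comparison, with Cd96 at 47.3, 50 and 49 CPM. Pdcd1, which encodes PD-1, had 0, 1 and 9 UMIs, and the 9 lay in 1 member of HFD_EXE. Of the proliferation list 2 genes had enough UMIs in HFD_sed over S, and Stmn1, which encodes the microtubule regulator stathmin, was higher, at 38.4, 70.4 and 92.5 CPM. Mki67 had a UMI in 3, 4 and 0 members and Top2a in 5, 3 and 1. In B cells Mki67 had a UMI in 2.98%, 1.93% and 2.77% of cells, against 2.27%, 3.81% and 0% of NK cells (thinned, 1.17%, 0.621% and 0.938% against 1.53%, 1.94% and 0%), so these shares lay near that of B cells. The list of lipid handling depended on the mixed-marker members, with 6 of 16 genes higher in HFD_sed than in S with them and 1 of 13 without them. In HFD_EXE over HFD_sed 6 of 11 of its genes were lower with them and 2 of 8 without them (medians -1.41 and -0.42).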

How the data were processed

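Single-cell libraries of mouse liver non-parenchymal cells were made with 10x 3′ chemistry, per the labels, and the submitters' processing notes name Cell Ranger 6.1.2 and GRCm39. The authors deposited raw UMI counts per gene and cell, not normalized. How multimapping reads were treated is not given in the sources used here. Cells were kept with at least 500 UMIs, 300 genes and under 15% mitochondrial UMIs, and 0 columns belonged to no sample. The members and gene lists were chosen with earlier results of these data known. Counts were summed over members per library and scaled to CPM. Exact Poisson, binomial and conditional binomial intervals (95%) cover counting error only. The rule of size was a ratio of at least 1.5, an interval excluding no difference and 20 UMIs in both libraries together; a count of 0 was set to 3 counts. Named genes were the rule's genes, 8 per comparison and direction with the largest bound nearest to no difference (at least 50 CPM, and at least 0.5 of the level over all kept cells), up to 5 per list, 15 against all other cells and 8 per direction against ILC1-side cells, with further list members added to complete a family. Bcl2 was named outside these choices, beside Bcl2l11. Of 399 list genes, 3 were not matched. Some items that these rules would name are not reported here. Thinning drew 1500 UMIs per cell. Doublets were not removed; Scrublet in Scanpy 1.11.5 was run as an alternative. The code was tested on simulated data. Python 3.11.15, NumPy 2.4.6, SciPy 1.17.1 and pandas 2.3.3 were used.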

Additional observations from a re-analysis of the deposited data

How the results depend on the processing

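No paired analysis was possible because each group had 1 library. Among Ptprc cells, the NK share HFD_sed over S had a log2 ratio of -0.78 (-0.39 of kept cells) and the NK share HFD_EXE over HFD_sed one of -0.26 (-1.21 of kept cells). The genes higher in HFD_sed over S numbered 485, and 147 after thinning and 261 at a ratio of 2. The genes lower in HFD_sed over S numbered 337, and 102 after thinning, 204 without mixed-marker members and 195 with at least 50 UMIs. The genes higher in HFD_EXE over HFD_sed numbered 160, and 48 after thinning, 248 with at least 5 UMIs, 88 with at least 50 UMIs, 87 at a ratio of 2 and 101 without the top cell of each gene. The genes lower in HFD_EXE over HFD_sed numbered 329, and 68 after thinning, 164 without mixed-marker members and 198 with at least 50 UMIs. Median-of-ratios scaling gave 415 higher and 369 lower for HFD_sed over S, and 229 higher and 242 lower for HFD_EXE over HFD_sed. Under it the medians for HFD_EXE over HFD_sed of the Ly49, NK identity and transcription factor lists were 0.12, 0.08 and 0.06.

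Directions turned for Cd5l HFD_sed over S (-1.03 without mixed-marker members, -0.12 with no Clec4f limit, -1.09 without its top cell), Prdm1 HFD_sed over S (-0.03 thinned), Ctsc HFD_EXE over HFD_sed (0.02 without mixed-marker members), Lamp1 HFD_EXE over HFD_sed (0.36 thinned, 0.01 without mixed-marker members) and Cd36 HFD_EXE over HFD_sed (0.84 without mixed-marker members). For these the cause was not tested. Of 128 calls among named genes, 92 of the 117 still measured without mixed-marker members were kept, 37 of 76 after thinning, and 116 of 125 without cells marked by Scrublet. Leaving out mixed-marker members, leaving out the top cell of a gene and lifting the Clec4f limit were chosen after seeing the data. The 43 members of HFD_EXE hold 183719 UMIs, which limits the genes that could be measured there.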
